A study of Mus musculus with 9 samples.

Results

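Azin2, Hal and Aldh1l1 are 3 genes of polyamine, histidine and folate metabolism. They were taken by gene name from a deposited count table of 311 genes, and were chosen by their counts: each was higher after transfection of a microRNA. The cells were RAW264.7, a macrophage-like mouse line, transfected with let-7c-5p mimics (5 libraries) or given a negative control (4 libraries), in a study of macrophage polarization. All libraries came from the same line, grown in DMEM with 10% fetal bovine serum. The labels name no stimulus, mimic dose or time after transfection, and do not describe the agent used as the negative control. Every gene of the table differed between the groups in its mean count, with an absolute log2 ratio of at least 0.98 wherever both means were above 0. The values of the 3 genes in this contrast therefore describe the reason they were chosen; no p-value is given for them, and calls of these genes are set beside the share called in the table without being read as evidence. In bulk RNA, more cells with a transcript and more transcript per cell cannot be told apart.

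Polyamines are small cations made from ornithine by ornithine decarboxylase, an enzyme that the antizyme proteins bind, inhibit and send to the proteasome. Azin2 (antizyme inhibitor; also known as Adc) is a relative of ornithine decarboxylase that lacks its activity, binds antizyme and so frees the enzyme; it is best known from testis and brain. Hal, histidine ammonia-lyase, takes the amino group off histidine to give urocanate in the entry step of histidine breakdown, and is best known from liver and skin. The later steps of that pathway hand a one-carbon unit to tetrahydrofolate, the carrier of the folate cycle. Aldh1l1, the cytosolic 10-formyltetrahydrofolate dehydrogenase, turns a charged form of this carrier back into tetrahydrofolate with release of CO2 and formation of NADPH. It is abundant in liver and serves as a marker of astrocytes in brain.

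Since the cells received let-7c-5p, its sequence is shown with the places in the 3 transcripts that pair with its seed. A microRNA guides silencing mainly through seed pairing in a 3′ untranslated region (UTR). Capitals mark the seed, bases 2 to 8 (RefSeq, GRCm38.p6).
let-7c-5p: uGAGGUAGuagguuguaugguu
Azin2 held 1 match to bases 2 to 7 and none to the whole seed, at bases 537 to 542 of its longest annotated 3′ UTR of 702 bases; the other annotated 3′ UTRs of Azin2, of 331 bases, held none. Hal held 2 matches to the whole seed, at bases 725 to 731 and 2236 to 2242 of a 3′ UTR of 2982 bases. Capitals mark the bases that pair with the seed, and the windows are 30 bases of GENCODE M21 transcripts (GRCm38).
Azin2 6-base match: ctcaggactaagtctTACCTCgctggaggg
Hal 7-base match near the start: agacattttaatatCTACCTCtggttctac
Hal 7-base match near the end: actgggctccacgcCTACCTCctgtttgta
Aldh1l1 held no 6-base match in its 3′ UTR of 1261 bases, and none of the 3 genes held one in the coding part or 5′ UTR searched. Among 21021 protein-coding genes with an annotated 3′ UTR, 23.4% had a match to bases 2 to 7, counted also where it was part of a longer match. Whole-seed matches were at least 1 in 9.02% and at least 2 in 1.08%. No share was computed for 3′ UTRs of a length like that of Azin2. Among the 3925 with a 3′ UTR of 2000 to 4000 bases, as in Hal, the whole-seed shares were 16.1% and 2.2%. Both Hal matches lie beyond the end of the RefSeq gene model of Hal, which is shorter than the GENCODE transcript. Which 3′ end is used in these cells was not tested.

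**Figure D1:**
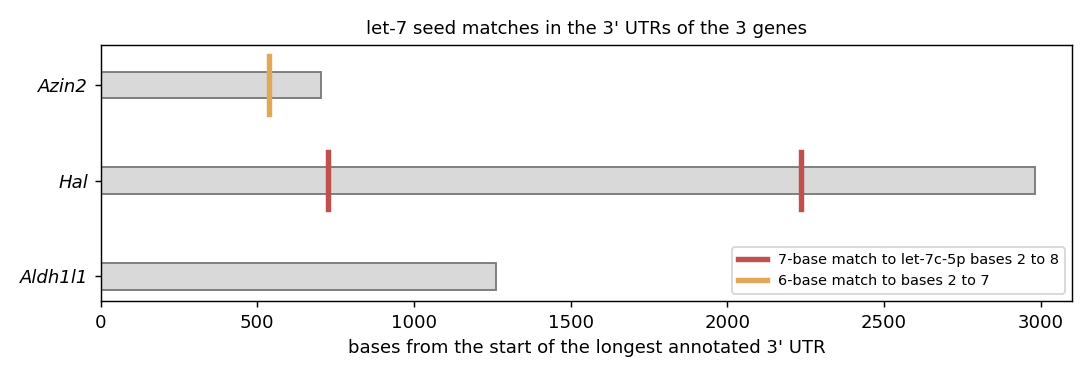
Longest annotated 3′ UTR of each gene (grey bars, in bases from its start) with matches to the let-7c-5p seed as vertical marks. Hal carries 2 matches of 7 bases, Azin2 carries 1 of 6 bases and Aldh1l1 carries none.

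Azin2 (ENSMUSG00000028789) lies on the minus strand at chr4:128930233-128962442 (GRCm38, GENCODE M21). It had the largest difference of the 3 genes. Its deposited counts in the let-7c-5p mimic libraries, replicates 1 to 5, were 673, 783, 660, 1206 and 596, against 160, 164, 166 and 161 in negative control replicates 1 to 4. The groups did not overlap, and the lowest mimic library was 3.59 times the highest control library. Mimic replicate 4 stood above the other mimic libraries, while the 4 controls lay within 6 counts of each other. The means were 784 ± 246 counts with the mimic (SD, n = 5) and 163 ± 2.75 in the control (SD, n = 4), a ratio of 4.81. The edgeR log2 fold change, mimic over control, was 2.15 ± 0.22 (SE). Without mimic replicate 4 it was 2.06 ± 0.21. Azin2 ranked the 2nd of the 77 tested genes with a positive fold change and had the 7th highest mean count among them.

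Hal (ENSMUSG00000020017) lies on the plus strand at chr10:93488768-93519304 and was the least counted of the 3 genes. Its deposited counts were 22, 19, 19, 37 and 33 in mimic replicates 1 to 5, against 13, 11, 10 and 12 in control replicates 1 to 4. The groups did not overlap, but only 6 counts separated the lowest mimic libraries from the highest control. Mimic replicates 4 and 5 were higher than the other 3 mimic libraries. The mean was 26.0 ± 8.43 counts with the mimic (SD, n = 5) and 11.5 ± 1.29 in the control (SD, n = 4). Counting error alone gives an SD of about 5.10 and 3.39 at these 2 means, so single Hal counts are imprecise. The log2 fold change was 1.10 ± 0.33 (SE), in 37th place among the 77 genes, close to their median of 1.10. Hal, the gene with 2 whole-seed matches, had more reads in the mimic libraries, which is what it was chosen for. Whether these matches act on Hal in these cells was not tested. Expressed as a share of the column total over the selected genes, Hal did overlap, with 3.05 to 5.73 per 10000 counts in the mimic and 2.28 to 3.20 in the control libraries. Gm10123, Gm6061 and Rpl17 hold a large part of these totals. With them left out of the totals, Hal did not overlap, at 8.28 to 14.1 per 10000 against 3.23 to 4.97.

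Aldh1l1 (ENSMUSG00000030088) lies on the plus strand at chr6:90486427-90600203. Its deposited counts were 74, 67, 94, 100 and 81 in mimic replicates 1 to 5, against 29, 22, 31 and 42 in control replicates 1 to 4. The groups did not overlap, with 25 counts between the lowest mimic and the highest control library, and no mimic library stood apart. The mean was 83.2 ± 13.7 counts with the mimic (SD, n = 5) and 31.0 ± 8.29 in the control (SD, n = 4), a ratio of 2.68. The log2 fold change was 1.38 ± 0.23 (SE), the 13th of the 77. Its exons share 499 bases with the annotated antisense gene Gm15756 and 105 bases with Gm45901 on the same strand. Whether the counting used strand is not stated in the labels or notes. How reads over the 499 bases shared with Gm15756, out of 4516 exon bases of Aldh1l1, were assigned is therefore unknown. Strand could not separate reads over the bases shared with Gm45901. Neither Gm gene is in the table. Apart from Gm15756, no other gene had a transcript near-identical to Azin2, Hal or Aldh1l1, taken as at least 95% identity over at least 300 bases.

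**Figure D2:**
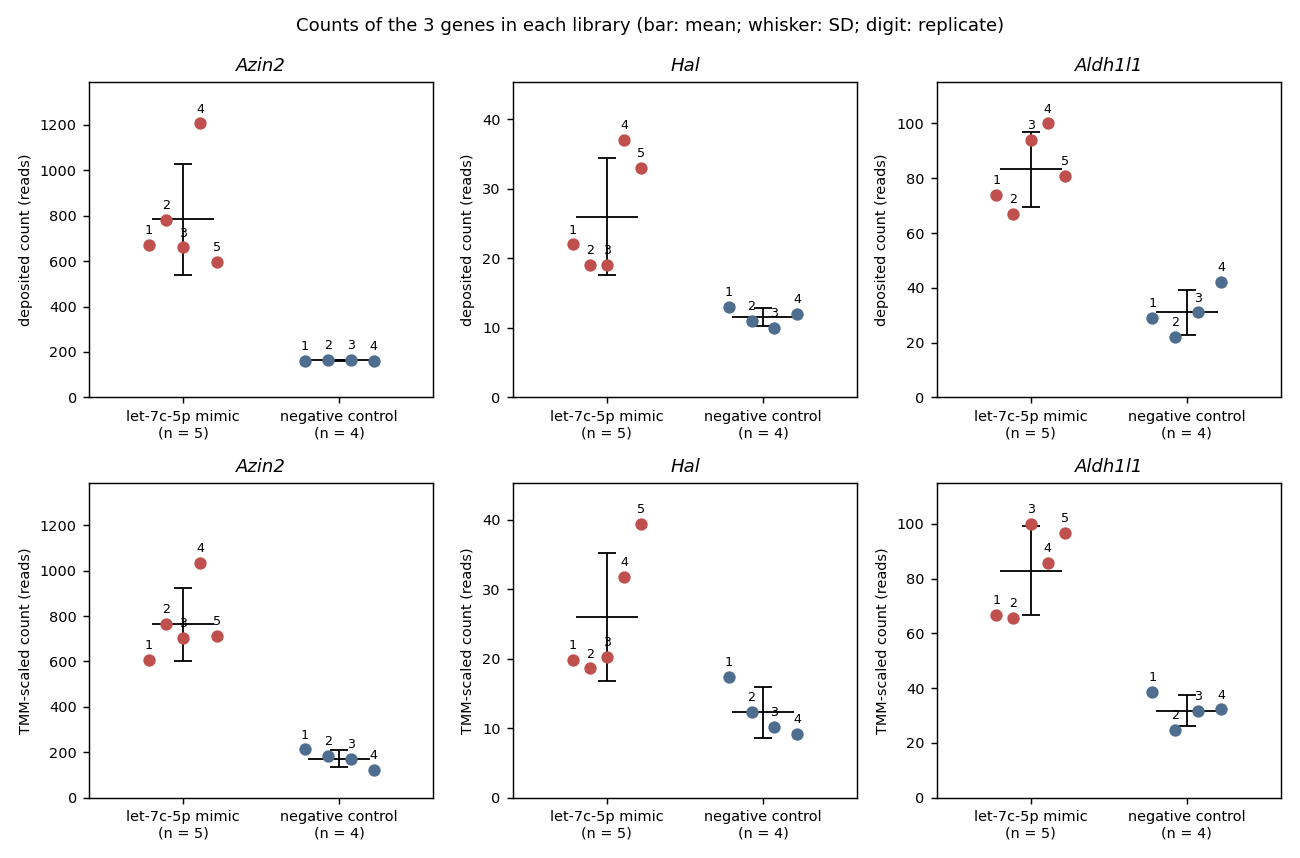
Counts of Azin2, Hal and Aldh1l1 in each library (points, with the replicate number), as deposited in the upper row and TMM-scaled in the lower row, with mean and SD. The 5 let-7c-5p mimic libraries lie above the 4 control libraries in all panels, with the narrowest gap in scaled Hal counts.

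The 3 genes passed the filter on low counts, and all 3 were called higher by edgeR at an adjusted p under 0.05. The share called higher was 51.0% of the 149 tested genes, and in 38.3% every deposited mimic count lay above every control count, as in these 3. These shares come from the selection of genes, so nothing is read from the 3 calls. Their median log2 fold change was 1.38, beside 1.10 over the 77 tested genes with a positive fold change and 0.93 over all 149. Since the other tested genes were negative and none lay near 0, the last median falls at the low edge of the positive genes. It describes no typical gene. After trimmed-mean (TMM) scaling the groups did not overlap in any of the 3. The share of all tested genes without overlap after scaling was not computed, so nothing is read from this either. Azin2 then had 606 to 1033 scaled counts with the mimic and 124 to 213 in the control. Aldh1l1 had 65.6 to 100 with the mimic and 24.8 to 38.6 in the control. Hal had 18.6 to 39.4 with the mimic and 9.21 to 17.3 in the control, a gap of 1.28 scaled counts.

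**Figure D3:**
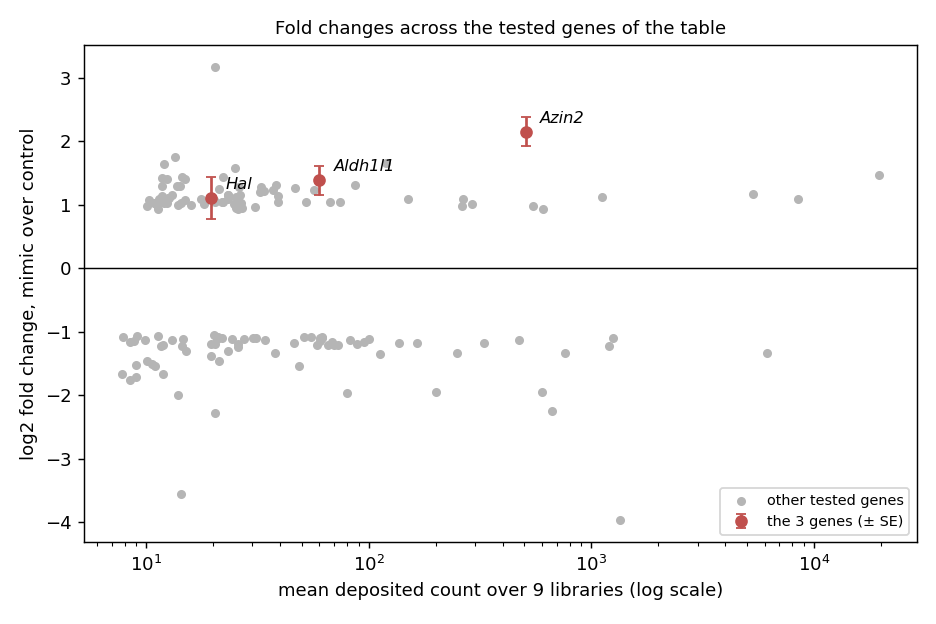
Log2 fold change, mimic over control, against mean deposited count (log scale) for the 149 tested genes, with the 3 genes in red and their SE. Azin2 lies above nearly all genes at 2.15, Aldh1l1 at 1.38, and Hal at 1.10 within the band of the other higher genes; no gene lies near 0 because the table holds selected genes.

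The size of each fold change depended on how libraries were scaled, since nearly all genes of the table differ and none can serve as a fixed point. Counts of Gm10123, Gm6061 and Rpl17 made up 48.0% to 71.9% of each mimic column and 29.3% to 35.7% of each control column, nearly all of it from Gm10123 and Rpl17, since Gm6061 had at most 570 counts in a library. Scaling by column totals shifted the tested genes by a median of -0.35 (log2) and gave 1.87 ± 0.31 for Azin2, 0.70 ± 0.35 for Hal and 1.01 ± 0.33 for Aldh1l1 (SE). Hal was no longer called under that scaling. Column totals without those 3 genes shifted them by 0.42 and gave 2.59 ± 0.19, 1.50 ± 0.27 and 1.77 ± 0.22 for Azin2, Hal and Aldh1l1. DESeq2 size factors shifted them by -0.24 and gave 1.95, 0.86 and 1.12.

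**Figure D4:**
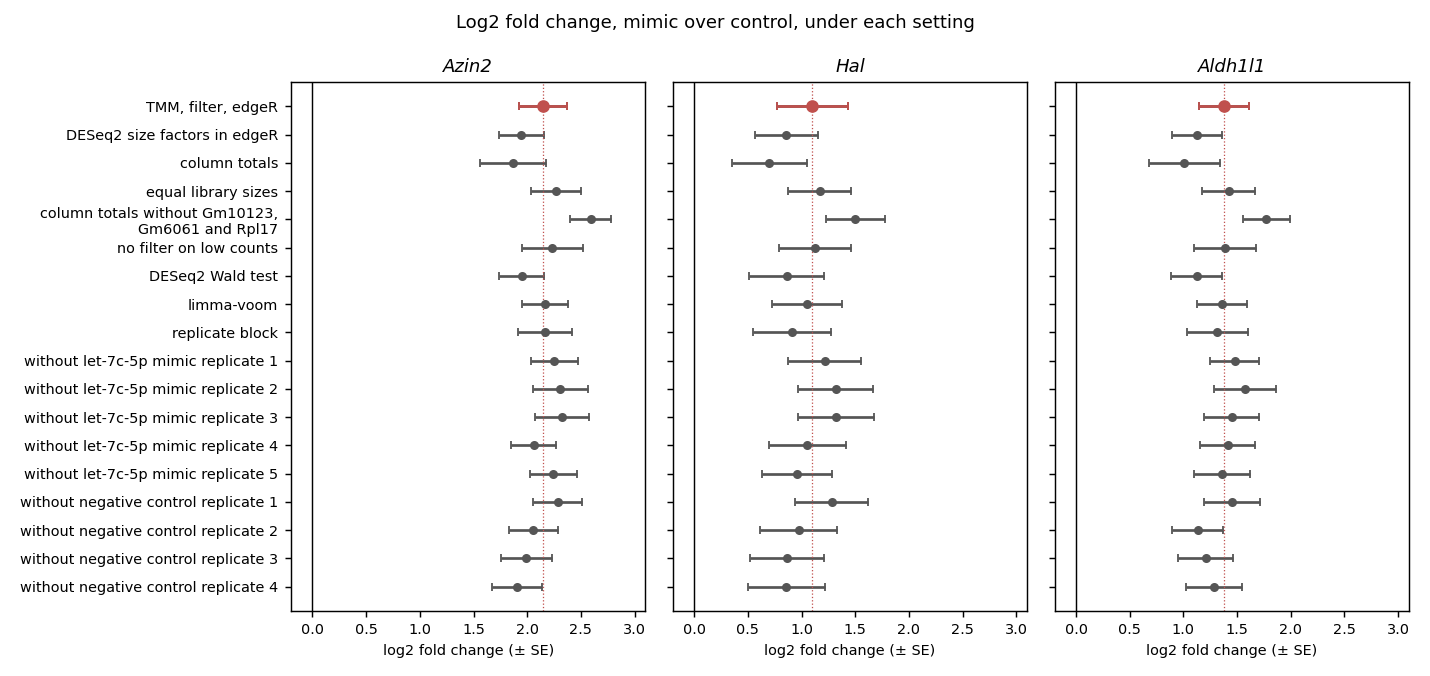
Log2 fold change with SE of Azin2, Hal and Aldh1l1 under each scaling, filter, test and left-out library; the red point is the reported fit and the dotted line its value. All values are positive, from 1.87 to 2.59 in Azin2, 0.70 to 1.50 in Hal and 1.01 to 1.77 in Aldh1l1.

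Levels of the 3 genes were compared per length, as counts per kilobase of the longest annotated transcript (2063 bases for Azin2, 5319 for Hal and 4175 for Aldh1l1). With the mimic, Azin2 had 380 ± 119, Aldh1l1 19.9 ± 3.28 and Hal 4.89 ± 1.58 counts per kilobase (SD, n = 5). In the control, these levels were 78.9 ± 1.33, 7.43 ± 1.99 and 2.16 ± 0.243 (SD, n = 4). In each group the ranges of the 3 genes did not overlap, also when all annotated exons were used as the length. A length of Hal that ends with its shorter RefSeq gene model would give Hal a higher level. That length was not tried. Ratios of levels between 2 genes of the same library need no scaling. The level of Azin2 over that of Hal was 46.6 to 106 in the mimic libraries and 31.7 to 42.8 in the control libraries, without overlap. That of Azin2 over Aldh1l1 was 14.2 to 24.4 with the mimic and 7.76 to 15.1 in the control, where mimic replicates 3 and 5 lay below control replicate 2. That of Aldh1l1 over Hal overlapped widely, at 3.13 to 6.30 with the mimic and 2.55 to 4.46 in the control. A shorter length of Hal would lower both ratios over Hal in the 2 groups alike. The genes were chosen by these counts, and the share of gene pairs whose ratio separates the groups was not computed. Nothing is therefore read from the ratios of Azin2 over Hal.

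Of the genes listed for these pathways, each member was the only one in the table. They were 1 of 31 genes of polyamine metabolism, 1 of 18 of histidine metabolism and 1 of 43 of folate and one-carbon metabolism. The other 88 listed genes, among them Odc1, the antizymes Oaz1 and Oaz2, Azin1, Arg1, Uroc1, Ftcd, Mthfd1 and Shmt1, were not analysed here. Whether the pathways changed was therefore not tested. None of 15 macrophage markers was in the table, so the labelled cell type could not be checked against them. Nor were any of 8 astrocyte, 8 hepatocyte or 8 keratinocyte markers, the cell types in which Aldh1l1 or Hal are best known. Of 6 dendritic cell markers only Itgax was in the table, with 24 to 36 counts in the mimic and 9 to 18 in the control libraries. Of 8 osteoclast markers only Mmp9 was, with 21 to 36 counts in the mimic and 57 to 78 in the control libraries. Their part in the values of the 3 genes was not tested.

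How the genes varied within a group was described by the deviation of each library from its group mean on the log2 scale, over 9 libraries. These points share the libraries and their scaling. The genes named are the 3 with the highest r for each gene under TMM scaling. Whether their values exceed what chance gives among so many genes was not tested. Azin2 deviated most like Lcn2, an iron-siderophore binding protein (Pearson's r 0.82), Ptgs1, the constitutive cyclooxygenase (0.81), and Nfkbiz, a regulator of NF-kappaB (0.75), out of 47 genes averaging 50 counts or more (median r 0.29). Lcn2 and Nfkbiz were lower with the mimic, with log2 fold changes of -1.96 and -2.24, while Ptgs1 was higher by 1.12. In mimic replicate 4, the library with the highest Azin2 count, Lcn2 had 196 counts, against 48 to 81 in the other mimic libraries, and Ptgs1 had 2021, against 957 to 1570. So Azin2 and Lcn2 were both high in mimic replicate 4, although they differed in opposite directions between the groups. Hal deviated most like Fam20c, a secreted-pathway protein kinase (0.93), Acod1, which makes itaconate (0.89), and Gas6, a ligand of phagocyte receptors (0.79), with a median of 0.11 over 48 genes. Aldh1l1 had weaker values, with 0.62 for the cytokine Tnf and 0.55 each for Fam20c and Acod1 (median r -0.04 over 47 genes). Under DESeq2 size factors, the values of Aldh1l1 became 0.63, 0.41 and 0.38 in the same order. Those of Hal became 0.875, 0.82 and 0.67, and those of Azin2 0.88, 0.77 and 0.72. Among the 3 genes, r was 0.59 for Azin2 and Hal, 0.52 for Hal and Aldh1l1 and 0.18 for Azin2 and Aldh1l1. With DESeq2 size factors these became 0.39, 0.30 and 0.09.

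The genes did not share base composition, with a GC content of the longest transcript of 59.7% in Azin2, 54.4% in Aldh1l1 and 48.6% in Hal, beside a median of 55.2% in 74 higher and 42.5% in 70 lower tested genes of the table with a matched ID. Hal lay between these 2 medians. The RefSeq promoters of Hal and Aldh1l1, from 250 bases before to 50 after the annotated start (GRCm38.p6), are shown because both genes were higher in the same libraries. Capitals mark matches on either strand to the motifs searched. The Hal promoter is chr10:93488518-93488817 (plus strand).
Hal promoter: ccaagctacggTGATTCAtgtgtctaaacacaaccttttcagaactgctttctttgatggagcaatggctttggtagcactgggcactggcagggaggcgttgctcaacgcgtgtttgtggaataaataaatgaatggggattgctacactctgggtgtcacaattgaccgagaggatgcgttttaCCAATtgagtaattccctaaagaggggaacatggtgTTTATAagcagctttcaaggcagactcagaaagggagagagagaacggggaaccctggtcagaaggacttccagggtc
The Aldh1l1 promoter is chr6:90550543-90550842 (plus strand), at the RefSeq start, which lies inside the longer gene span that GENCODE gives.
Aldh1l1 promoter: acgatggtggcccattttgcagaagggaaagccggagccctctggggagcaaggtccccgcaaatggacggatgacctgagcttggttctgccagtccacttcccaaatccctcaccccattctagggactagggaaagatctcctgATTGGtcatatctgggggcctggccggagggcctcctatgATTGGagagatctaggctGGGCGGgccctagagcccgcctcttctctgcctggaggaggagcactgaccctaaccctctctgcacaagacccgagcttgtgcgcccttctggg
The motifs were the E-box CACGTG, AP-1 TGANTCA, the PU.1 core GAGGAA, CRE TGACGTCA, the antioxidant response core TGACNNNGC, the CCAAT box, the GC box GGGCGG and the TATA box TATAAA. Hal held an AP-1 match 239 bases, a CCAAT match 64 bases and a TATA match 28 bases before the start. The TATA match was on the strand opposite the gene. Aldh1l1 held CCAAT matches 103 and 63 bases and a GC box 45 bases before the start. Both CCAAT matches of Aldh1l1 were on the strand opposite the gene. The CCAAT box was the motif found in both, and 37.4% of 32851 promoters hold it. AP-1 was in 7.8%, the TATA box in 13.6% and the GC box in 35.7%. The E-box, PU.1 core, CRE and antioxidant response core, held by 7.2%, 28.3%, 1.8% and 12.4% of promoters, had no match in either window. The Hal promoter had 47.7% GC and the Aldh1l1 promoter 60.0%, against a median of 52.7%.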

How the data were processed

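RNA from 9 libraries was analysed from a table of read counts per gene deposited by the authors, not normalized, each library in its own column. Per the submitters' processing notes, FastQC 0.11.9, HISAT2 2.1.0, HTSeq 0.11.2, R 4.3.2 and DESeq2 1.4.2 were used. No genome build, annotation, strand setting or rule for the selection of the 311 genes was stated: not given in the sources used here. Column totals, 43241 to 83053 counts with the mimic and 40655 to 50083 in the control, are sums over selected genes and not sequencing depths, which are unknown. No library pair within a group was indistinguishable (chi-square over degrees of freedom, 3.29 to 121).

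The whole table was fitted with edgeR 4.0.16 in R 4.3.3 (TMM scaling, filterByExpr with a minimum count of 10, quasi-likelihood test, Benjamini-Hochberg adjustment). The SE is the absolute log2 fold change over the square root of F. The step was tested on simulated data, where calls were right with known scaling and TMM added a common shift when most genes changed, so fold changes under several scalings are given. Alternatives were DESeq2 1.42.0, limma-voom (limma 3.58.1), other scalings, no filter, a replicate block and leaving out each library. 1 of them was chosen after seeing the data.

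Named genes were the 3 genes, table members of the pathway lists and the 3 genes with the most similar deviations per gene among those with a mean of at least 50 counts (prior count 2). The genes and lists were chosen with earlier results of these data known. The genes outside this rule (Itgax and Mmp9) are listed cell type markers. Transcripts were taken from GENCODE M21 by gene ID, similar ones were searched with blastn 2.17.0, and microRNA and promoter sequences came from RefSeq (GRCm38.p6), with 2 of the 3 genes matched in its promoter table. A 3′ UTR match was an exact match in the longest annotated 3′ UTR.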

Additional observations from a re-analysis of the deposited data

How the results depend on the processing

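Of 17 alternatives to the reported fit, 16 moved the log2 fold change of Azin2, 17 that of Hal and 15 that of Aldh1l1 by less than the within-group SD of its log2 scaled counts, and 0 reversed a sign. These genes had been chosen for this difference, so kept signs are little evidence of stability. The within-group SD was widest in Hal, at 0.41 against 0.30 in Azin2 and 0.27 in Aldh1l1. Hal could thus shift furthest and still be counted as unmoved. Column totals without Gm10123, Gm6061 and Rpl17 gave 2.59 for Azin2 and 1.77 for Aldh1l1, and column totals gave 1.01 for Aldh1l1. With column totals Hal was at 0.70, the only setting in which it was not called. Leaving out each library gave 1.90 to 2.33 for Azin2, 0.86 to 1.32 for Hal and 1.13 to 1.58 for Aldh1l1. The reported fit called 148 genes, against 311 with no filter on low counts and 237 with the DESeq2 Wald test, both of which tested more genes, and 131 to 164 leaving out each library. Of the calls, 51.4% were higher in the reported fit, 29.4% with column totals (102 calls), 40.5% with DESeq2 and 61.1% with totals that omit Gm10123, Gm6061 and Rpl17 (126 calls, chosen after seeing the data). With the replicate block, 144 genes were called, with log2 fold changes of 2.17, 0.91 and 1.32 for Azin2, Hal and Aldh1l1. Whether equal replicate numbers mark paired libraries is not stated in the labels. Deviations of same-numbered libraries correlated at -0.23 to 0.03 across genes, which cannot settle this in a table of selected genes. Counts of 10 to 37 limit the precision of Hal.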

Other observations

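The deposited Azin2 counts of the 4 control libraries, 160 to 166, varied less than counting error. Their coefficient of variation was 1.69%, where counting error alone gives about 7.84% at this mean, and the variance over the mean was 0.047, the 2nd lowest of the 149 tested genes (median 1.92). Hal was the 3rd lowest at 0.14, and Aldh1l1 stood near the middle at 2.22. Such a ratio from 4 libraries is imprecise, and whether the low values go beyond what counting error gives among 149 genes was not tested. TMM scaling raised the coefficient of variation of Azin2 in the controls to 21.7% and DESeq2 size factors to 8.34%. In the mimic libraries Azin2 varied by 31.3% as deposited, 21.1% with TMM scaling and 25.4% with DESeq2 size factors.

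Mimic replicate 4 had the highest deposited count of Azin2, Hal and Aldh1l1. It was also the highest mimic library in 26 of the 77 tested genes with a positive fold change (33.8%). After TMM scaling the highest library was replicate 4 for Azin2, replicate 5 for Hal and replicate 3 for Aldh1l1. Over the 77 genes it was then replicate 5 in 42.9%, replicate 4 in 22.1% and replicate 3 in 18.2%.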
